A study of Arabidopsis thaliana with 4 samples.

Results

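The untreated *Arabidopsis thaliana* plants on the 4 arrays of this experiment were compared with each other, the plants labelled day 2 (replicate 2 of the study) against the plants labelled day 0 (replicate 1). Each array is an Agilent 2-colour array on which cRNA of untreated plants was labelled with Cy3 and cRNA of Al-treated plants of the same line with Cy5. Only the Cy3 channel enters the comparison, so that 4 of the 8 RNA samples of the series are described. A probe had to be well above background in Cy3 on all 4 arrays by the scanner software's own flag, and 26136 of 43576 probes passed. They cover 16824 of the 25368 loci that the probes could be paired with.

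On each day 1 array held the wild type Col-0, the laboratory ecotype, and 1 array held the *AvSAMS1* TF line. The TF line is Col-0 with the S-adenosylmethionine (SAM) synthetase gene of the Al-tolerant grass *Andropogon virginicus* behind the constitutive CaMV 35S promoter. A single homozygous line, TF6, was on the arrays according to the methods. All plants were untreated, and each RNA came from a pool of plants. The methods on growth give soil, long days and an age of about 3 weeks for work other than stress sensitivity tests. The methods on stress instead describe Al exposure of younger seedlings grown in nutrient medium. Which held for the array plants was not settled here. Thus the groups were untreated Col-0 and untreated TF of day 2 against untreated Col-0 and untreated TF of day 0, with 1 array for each. The sources differ at 2 further points that touch the comparison. The labels give day 2 for the untreated plants of replicate 2 and day 0 for those of replicate 1. The methods instead describe 2 days without Al for untreated plants. The legend of the paper's array plots adds that control seedlings spent these 2 days at an acid pH. Whether plants labelled day 0 had that step is not stated. The labels also name the whole plant as tissue but shoots as the source of the labelled RNA.

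Day cannot be told apart from replicate, slide or software version, nor from scanner if that differed too. Both day 2 arrays were on 1 slide and were read with one version of Agilent Feature Extraction, and the day 0 arrays were on a slide each and read with another version. The day 2 arrays were also brighter. The share of Cy3 spots well above background was 77.5% in Col-0 and 77.9% in TF on day 2, against 68.6% in Col-0 and 62.1% in TF on day 0, and the medians of the signal were 505 and 512 on day 2, against 244 and 152 on day 0. The lowest level well above background, on the log2 scale after normalisation, was 3.59 and 3.55 on day 2, against 5.08 and 5.81 on day 0. A gene that was faint on day 0 was therefore lost to the filter more often than a gene that was faint on day 2. Of the probes, 3098 were well above background on both day 2 arrays and on neither day 0 array, whereas 68 showed the reverse, which for loci came to 6.11% and 0.13% of 25368.

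Leaf RNA shifts over a few days and over a single day for many reasons. The circadian clock is built from morning genes such as *CCA1* and *LHY* and from evening genes such as *TOC1*, *GI* and *ELF4*, which repress each other in turn. Plants short of phosphate, sulphate, nitrate or iron switch on transporters and recycling enzymes, and plants that run short of sugar in the dark switch on the *DIN* (dark-inducible) genes. Heat shock proteins, *WRKY* and *ERF* transcription factors and *JAZ* repressors answer heat, touch and wounding within minutes to hours. Handling can therefore change them, and its part in these data was not tested.

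The comparison was first made with limma over all 26136 probes, on log2 levels after quantile normalisation. No probe passed a Benjamini-Hochberg adjusted p of 0.05 (0% of 16824 loci). The smallest adjusted p was 0.111, and 1603 probes were higher and 2869 lower on day 2 at an unadjusted p under 0.05. With 2 arrays a day, an exact two-sided permutation test of a single gene cannot go below p = 0.333. With line as a replicate block, which pairs the arrays of the same line, limma called 574 probes higher and 1496 lower on day 2 (400 loci or 2.38%, and 902 loci or 5.36%). The block fit has a single residual degree of freedom. Its count is given with the lists below, and its p is called the blocked adjusted p. A size rule that needs no test was used beside it. A gene was counted as separated by 2-fold where the lower of its day 2 values was at least 2-fold above the higher of its day 0 values, or the reverse. By this rule 465 loci (2.76%) were higher and 918 loci (5.46%) lower on day 2. Among these loci, 1018 were also called by the blocked limma fit. A gene described below as separated was also called by that fit unless a higher blocked adjusted p is printed with it.

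The direction of the balance depended on the filter. Higher probes were 30.7% of the separated probes on all 4 arrays, with 674 higher and 1524 lower. With probes well above background on at least 2 arrays, 2216 were higher and 1841 lower, so that the higher share was 54.6%. When probes were ranked by mean signal and cut into 5 equal bins, the faintest bin had 62 higher and 614 lower probes and the brightest bin 155 higher and 243 lower probes. The part of the detection limit in the excess of lower genes was not tested.

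The day 2 arrays resembled each other more than the day 0 arrays did. The SD of the log2 difference over probes was 0.73 between the 2 lines on day 2 and 1.00 between the 2 lines on day 0. Between days it was 0.97 within Col-0 and 1.15 within TF. The day 0 TF array stood apart, with an SD of 1.4 to the day 2 Col-0 array. Across probes, the difference between days in Col-0 and that in TF had a Pearson r of 0.66, which is a description over probes of 4 arrays, and 72.1% of loci had the same sign in both lines. At 91 loci the lines moved at least 2-fold in opposite directions.

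**Figure D1:**
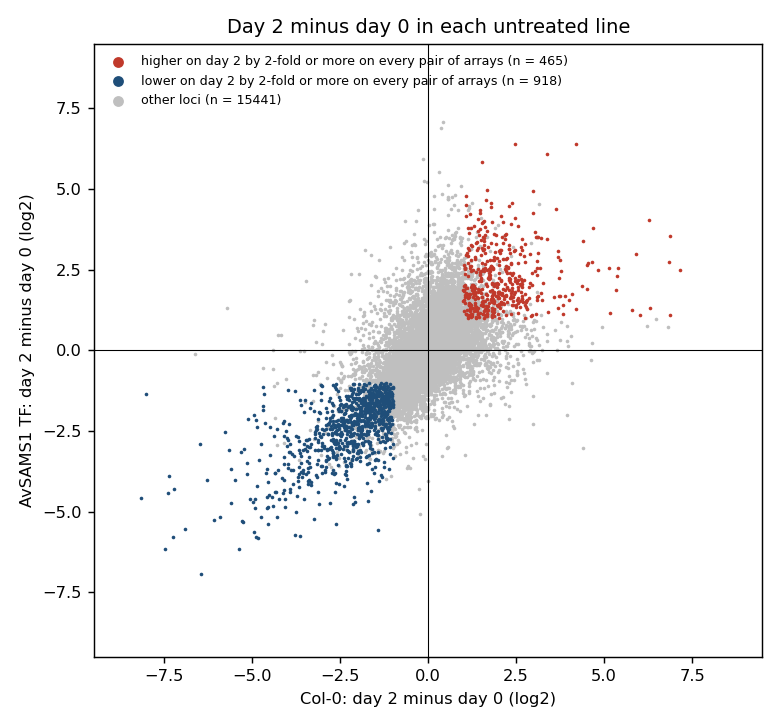
Each point is 1 of 16824 loci, with the log2 difference between day 2 and day 0 in Col-0 on the x axis and in AvSAMS1 TF on the y axis. The 465 loci separated by 2-fold with higher day 2 levels are red, the 918 with lower day 2 levels are blue, and most loci lie along the rising diagonal.

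The largest mean increases on day 2, among loci without overlap between the days, included genes of methionine-derived glucosinolates, of nitrate and of phosphate nutrition. *MAM1*, the methylthioalkylmalate synthase that lengthens the side chain of methionine, had a log2 level of 13.62 in Col-0 and 13.31 in TF on day 2, against 9.43 in Col-0 and 6.91 in TF on day 0. The mean difference was 5.29 ± 0.88 (SE, limma), with an adjusted p of 0.121 and a blocked adjusted p of 0.020. *CYP83A1*, which oxidises the aldoximes of the same pathway, had 15.18 and 13.78 in Col-0 and TF on day 2, against 11.81 and 7.68 in Col-0 and TF on day 0. Both genes were lowest on the day 0 TF array. *NRT1.5*, which loads nitrate into the root xylem, had 13.52 in Col-0 and 11.92 in TF on day 2, against 7.63 in Col-0 and 8.93 in TF on day 0. *MGDC* (MGD3), a monogalactosyldiacylglycerol synthase that replaces phospholipids under phosphate shortage, had 10.90 and 10.35 in Col-0 and TF on day 2, against 6.21 and 6.56 in Col-0 and TF on day 0. Its difference of 4.24 ± 0.36 had the smallest error of the 10 highest genes, with a blocked adjusted p of 0.017.

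Genes known from roots stood in the same group. *AIR1*, an auxin-induced gene of root cultures, had 12.51 in Col-0 and 9.82 in TF on day 2, against 5.67 in Col-0 and 7.08 in TF on day 0 (blocked adjusted p 0.051). *GSTF14*, a glutathione S-transferase of the phi class, had 12.58 and 10.54 in Col-0 and TF on day 2, against 6.31 and 6.50 in Col-0 and TF on day 0. Both were highest in Col-0 of day 2. The other genes among the 10 highest were *AT5G62360*, *AT4G22212*, *AT2G15020* and *AT4G24780*, with mean differences between 4.0 and 5.21. The blocked adjusted p of *AT4G22212* was 0.062 and that of *AT2G15020* was 0.055. *AT5G62360* has 3 probes that passed the filter, and their differences ran between 2.01 and 5.21.

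Of the 10 genes with the largest mean decrease on day 2, also without overlap, 4 were on the heat shock list and *SRO5* was on the oxygen shortage list. *AT1G14550*, for which the gene table gives no symbol, had 6.15 in Col-0 and 9.54 in TF on day 2, against 13.62 in Col-0 and 15.70 in TF on day 0, a difference of -6.82 ± 1.33. *DDF1*, a transcription factor of the DREB family, had 5.12 and 5.82 in Col-0 and TF on day 2, against 12.37 and 11.62 in Col-0 and TF on day 0. *CYP94B3*, which inactivates jasmonoyl-isoleucine by oxidation, had 6.77 in Col-0 and 8.02 in TF on day 2, against 13.67 in Col-0 and 13.54 in TF on day 0. *SRO5*, a relative of the stress regulator RCD1, had 7.70 and 7.98 in Col-0 and TF on day 2, against 13.80 and 13.24 in Col-0 and TF on day 0. For these 3 genes the lines of each day lay within 1.25 of each other on the log2 scale, and the differences were -6.52 ± 0.44, -6.22 ± 0.50 and -5.68 ± 0.35, each with an adjusted p of 0.111 and a blocked adjusted p of 0.017. The 4 heat shock genes encode small heat shock proteins (*AT1G53540*, *HSP17.6II*, *HSP17.6A* and *HSP17.4*), and *AT4G25580* and *AT2G25460* were the remaining genes, with differences of -6.68 and -5.78.

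**Figure D2:**
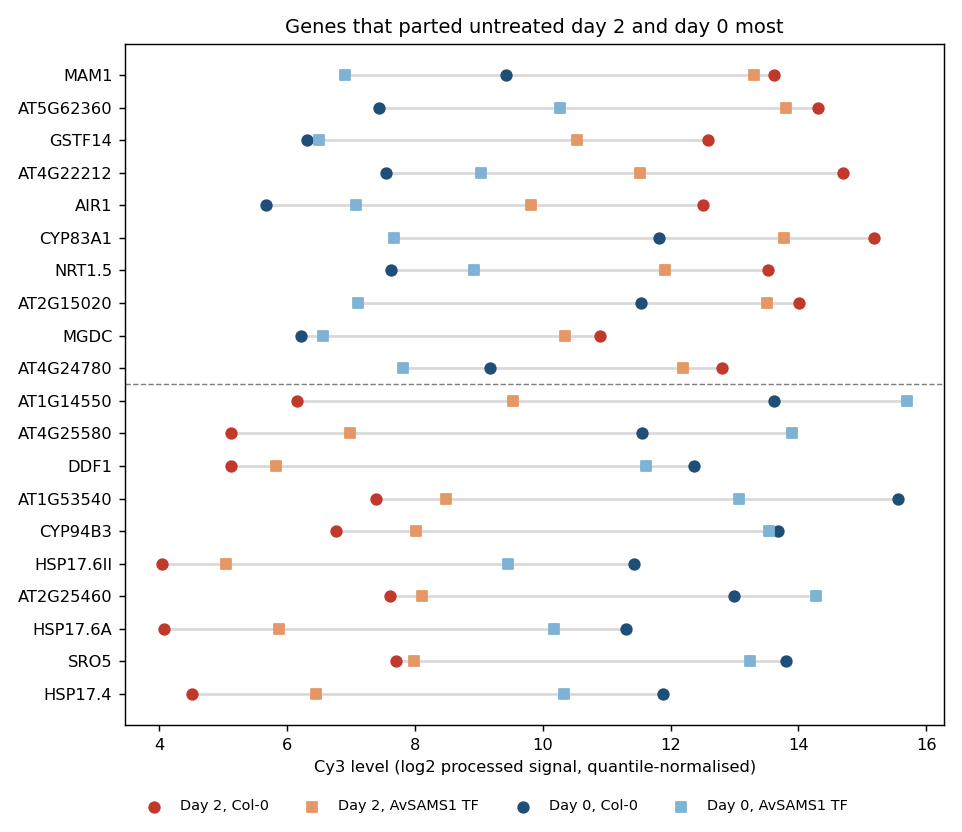
The log2 Cy3 level of 20 genes is plotted for each of the 4 arrays, with day 2 in red and orange and day 0 in dark and light blue, and Col-0 as circles and AvSAMS1 TF as squares. Above the dashed line are the 10 genes with the largest mean increase on day 2 (4.0 to 5.29), below it those with the largest mean decrease (-6.82 to -5.62), each taken from loci whose days do not overlap, which the choice therefore fixes.

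For groups of genes, 21 lists were read, and the median difference over all 16824 loci was -0.02. To set beside the list counts, 5.46% of all loci were separated lower and 2.76% higher. Without overlap, 27.7% of all loci were lower and 22.7% higher. The heat shock list had the lowest median. Of its 25 genes, 20 were above background on all arrays, and 17 of these had both day 2 values below both day 0 values (27.7% of all loci had). The count separated by 2-fold was 9 lower and 0 higher, and 7 were called lower in the blocked fit. The list median was -2.02, at -3.29 in Col-0 and -0.99 in TF, and leaving out 1 array gave -1.33 without day 2 Col-0, -2.96 without day 2 TF, -1.55 without day 0 Col-0 and -2.41 without day 0 TF. *AT1G53540*, a cytosolic small heat shock protein gene, had 7.39 in Col-0 and 8.49 in TF on day 2, against 15.56 in Col-0 and 13.07 in TF on day 0. *HSP101*, the disaggregase of heat tolerance, had 8.15 and 9.05 in Col-0 and TF on day 2, against 12.11 and 11.34 in Col-0 and TF on day 0. *HSFA2*, the heat-induced transcription factor, had 6.52 in Col-0 and 7.56 in TF on day 2, against 11.38 in Col-0 and 9.93 in TF on day 0. In these genes the day 0 Col-0 array was the highest of all. *ATHSP22.0*, a small heat shock protein gene of the secretory pathway, was not well above background on either day 2 array and was at least 40.6-fold lower there, a bound set by the lowest level well above background on each dim array.

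The touch, wound and early stress genes were also lower on day 2, by a like amount in both lines. All 20 measured genes of 21 had a lower mean on day 2, 17 without overlap, and 12 were separated by 2-fold and 12 called lower in the blocked fit. The median was -1.83, at -1.73 in Col-0 and -2.10 in TF. *RRTF1*, an early redox-responsive ERF factor, had 8.33 in Col-0 and 8.26 in TF on day 2, against 14.24 in Col-0 and 13.42 in TF on day 0, a difference of -5.54 ± 0.39. *CML37*, a calmodulin-like protein gene, had 10.50 and 10.18 in Col-0 and TF on day 2, against 14.85 and 13.98 in Col-0 and TF on day 0. *TCH4*, the touch-induced xyloglucan endotransglucosylase, had 13.31 in Col-0 and 14.03 in TF on day 2, against 16.18 in Col-0 and 17.29 in TF on day 0. *WRKY40* was lower on day 2 by 2.51 ± 0.31 on the log2 scale, while *ERF104* (-0.07) and *ERF5* (-0.30) were close to 0.

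The jasmonate list held genes of both signs. Its median over 24 of 25 genes was -0.32, with 7 separated lower and 1 higher. The 7 were *JAZ1*, *JAZ5*, *JAZ7*, *JAZ8* and *JAZ10*, which encode repressors that jasmonate itself induces, and *LOX3* and *LOX4*, lipoxygenases of jasmonate synthesis. *JAZ7* had 10.30 in Col-0 and 9.97 in TF on day 2, against 14.56 in Col-0 and 13.69 in TF on day 0. *LOX4* had 8.69 and 8.40 in Col-0 and TF on day 2, against 12.39 and 12.32 in Col-0 and TF on day 0. Genes of storage and defence proteins had positive differences, larger in TF. *VSP2*, a vegetative storage protein gene, had 12.64 in Col-0 and 15.13 in TF on day 2, against 12.33 in Col-0 and 9.60 in TF on day 0. *PDF1.2*, the plant defensin, had 13.71 and 17.13 in Col-0 and TF on day 2, against 12.04 and 12.15 in Col-0 and TF on day 0. The blocked adjusted p was 0.19 for *VSP2* and 0.07 for *PDF1.2*. The list was at -0.76 in Col-0 and 0.32 in TF, and its median was 0.21 without the day 2 Col-0 array, -0.14 without the day 0 Col-0 array and -0.84 without the day 0 TF array.

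Salicylic acid genes were lower for 17 of 19 measured genes of 22, with 8 separated lower and 2 higher, 6 called lower and 0 called higher in the blocked fit, and a median of -1.11 (-1.24 in Col-0, -1.12 in TF). *SARD1*, a transcription factor that drives salicylic acid synthesis, had 9.21 in Col-0 and 9.34 in TF on day 2, against 12.58 in Col-0 and 12.33 in TF on day 0. *PBS3*, an enzyme of that synthesis, had 8.94 and 10.17 in Col-0 and TF on day 2, against 11.75 and 13.23 in Col-0 and TF on day 0. *GRX480*, a glutaredoxin gene, had 10.37 in Col-0 and 10.09 in TF on day 2, against 15.00 in Col-0 and 12.34 in TF on day 0. The 2 genes separated upwards were *PR2* and *PR5*, with blocked adjusted p of 0.077 and 0.098, and *PR5* had 10.63 and 11.64 in Col-0 and TF on day 2, against 9.54 and 7.47 in Col-0 and TF on day 0. No direction can be read for *PR1*, which was at 4.38 and 5.06 in Col-0 and TF on day 2, against 5.06 and 5.87 in Col-0 and TF on day 0, where it was not well above background. Of the senescence genes 10 of 12 were measured, with a median of -0.61 and 5 lower without overlap (27.7% of all loci). *SAG14* alone was separated, lower by 2.27 on the log2 scale. The blocked fit called 3 lower (5.36% of all loci), and the largest decrease, -2.43, was in a gene that was not separated. *SAG12*, the gene that marks leaf senescence most strictly, was above background on a single array.

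Dark and sugar starvation genes were lower in 16 of 18 measured genes of 19, with a median of -1.38 (-0.98 in Col-0, -1.64 in TF). Of these, 6 were separated lower and 1 higher, and the blocked fit called 7 lower and 1 higher. The median was -0.80 without the day 0 TF array. *DIN6*, the asparagine synthetase of darkness, had 12.77 in Col-0 and 14.61 in TF on day 2, against 16.00 in Col-0 and 17.19 in TF on day 0. *DIN9*, a mannose-6-phosphate isomerase gene, had 9.56 and 10.49 in Col-0 and TF on day 2, against 11.82 and 13.63 in Col-0 and TF on day 0. *DIN2*, a beta-glucosidase gene, differed more between the lines, with 12.14 in Col-0 and 13.18 in TF on day 2, against 14.22 in Col-0 and 17.88 in TF on day 0. *SEN1* lay at 15.49 and 16.30 in Col-0 and TF on day 2, against 16.33 and 18.04 in Col-0 and TF on day 0, so that TF of day 2 lay just below Col-0 of day 0. The trehalose phosphate synthase gene *TPS5*, unlike its relatives *TPS9* and *TPS11*, was separated higher, by 2.32 ± 0.41.

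Genes of oxygen shortage had a median of -1.22 over 16 of 20 genes, at -1.94 in Col-0 and -0.44 in TF. It was -0.41 without the day 0 Col-0 array and -1.91 without the day 0 TF array. *ADH1*, the alcohol dehydrogenase of fermentation, had 9.98 in Col-0 and 9.37 in TF on day 2, against 14.40 in Col-0 and 9.94 in TF on day 0. *PDC1*, pyruvate decarboxylase, had 6.25 and 5.79 in Col-0 and TF on day 2, against 10.62 and 6.90 in Col-0 and TF on day 0. In both genes the day 0 Col-0 array stood far above the other 3. *HB1*, the non-symbiotic haemoglobin, and *PCO1*, a plant cysteine oxidase, were separated in both lines. *PCO1* had 8.34 in Col-0 and 8.35 in TF on day 2, against 10.54 in Col-0 and 10.18 in TF on day 0. The separated genes were 4 lower and 0 higher, *SRO5* and *AT1G33055* being the others, and the blocked fit called 3 of them, without *AT1G33055* (blocked adjusted p 0.10).

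**Figure D3:**
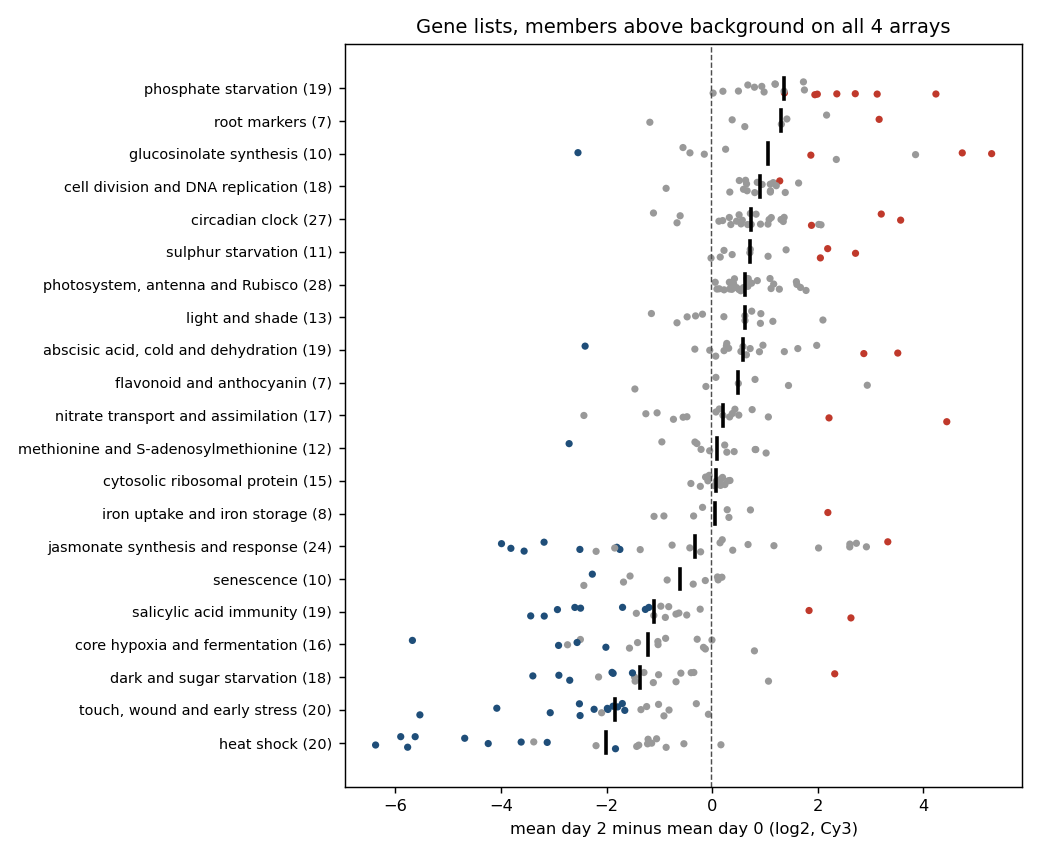
Each point is 1 gene of a list, at its mean day 2 minus mean day 0 Cy3 difference, with the number of genes above background on all 4 arrays in parentheses. Red and blue points are separated by 2-fold between the days (higher and lower on day 2), black bars are list medians, which run between 1.36 for phosphate starvation and -2.02 for heat shock, and the dashed line is the median of all loci (-0.02).

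Several groups of nutrient genes had positive medians. Of the phosphate starvation list 19 of 21 genes were measured, all 19 with a positive difference and 14 without overlap (22.7% of all loci). The count separated by 2-fold was 7, the blocked fit called 7, and the median was 1.36 (1.66 in Col-0, 1.11 in TF, and 0.89 without the day 2 Col-0 array). *SPX1*, a phosphate sensor protein gene, had 14.56 in Col-0 and 13.38 in TF on day 2, against 10.78 in Col-0 and 10.92 in TF on day 0, a difference of 3.12 ± 0.48. *PAP17*, an acid phosphatase gene, had 13.68 and 13.69 in Col-0 and TF on day 2, against 11.21 and 11.44 in Col-0 and TF on day 0. *PHO1;H1*, a phosphate exporter gene, was higher by 2.71 ± 0.43, and the phosphate transporter genes *PHT1;1* and *PHT1;4* were higher by 1.37 (blocked adjusted p 0.061) and 1.94. *SPX3* was not well above background on day 0 and was at least 9.99-fold higher on day 2. *IPS1*, a noncoding RNA of phosphate shortage, was on day 2 at 6.82 in Col-0 and 3.99 in TF, and not well above background on day 0. The TF level lay below the lowest level well above background on day 0 (5.08 in Col-0, 5.81 in TF). No bound was set for *IPS1*, and no direction can be read in TF. *PHR1*, the regulator of the response whose own transcript is known to vary little, differed by 0.02.

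Sulphur starvation genes had a median of 0.72 over 11 of 13 genes, with 3 separated higher and 0 lower, and it was 0.46 in Col-0 and 1.57 in TF. Without the day 0 Col-0 array the median was 1.59. *GGCT2;1*, a glutathione-degrading enzyme, had 10.49 in Col-0 and 10.80 in TF on day 2, against 8.20 in Col-0 and 7.67 in TF on day 0. *ATSDI1* (9.81 and 9.63 in Col-0 and TF on day 2, 8.04 and 7.03 in Col-0 and TF on day 0) and *LSU2* were the other separated genes. The nitrate genes differed among themselves. *NRT1.1*, the nitrate transceptor, had 13.62 and 14.21 in Col-0 and TF on day 2, against 11.95 and 11.44 in Col-0 and TF on day 0, whereas the nitrate reductase gene *NIA1* had 13.15 in Col-0 and 12.59 in TF on day 2, against 14.67 in Col-0 and 13.58 in TF on day 0. *NRT1.8*, which takes nitrate back out of the xylem, had 8.73 and 10.38 in Col-0 and TF on day 2, against 11.12 and 12.85 in Col-0 and TF on day 0, and was the one gene of the list called lower in the blocked fit. *NIR1* differed by 0.50 ± 0.52. *NRT2.1*, a high-affinity transporter known from roots, had 12.95 and 11.76 in Col-0 and TF on day 2, against 5.24 and 6.96 in Col-0 and TF on day 0, and was well above background on only 1 of the day 0 arrays. The nitrate list as a whole was at 0.20 over 17 of 22 genes, with 2 separated higher and 0 lower, and at -0.08 to 0.49 when 1 array was left out, the lowest without day 2 Col-0 and the highest without day 2 TF.

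The iron list could be measured on all arrays for 8 of 21 genes. Their median was 0.05 (0.59 in Col-0, -0.37 in TF), with 4 positive and 4 negative differences. Another 9 genes were well above background on both day 2 arrays and on neither day 0 array (6.11% of all loci). They included the iron deficiency regulators *FRU* (FIT), *BHLH39* and *BHLH100*, the root iron transporter *IRT1*, and *AT1G47400* and *AT1G47395*, neighbouring genes of short IRON MAN peptides, whose probes may share signal. *BHLH100* was at 11.55 in Col-0 and 8.78 in TF on day 2 and was at least 26.3-fold higher than on day 0. *AT1G47395* was at 13.29 and 10.25 in Col-0 and TF on day 2 and was at least 75.5-fold higher. In each of the 9 genes the day 2 level was higher in Col-0 than in TF. The iron storage gene *FER1*, which is high where iron is ample, had 12.90 in Col-0 and 14.34 in TF on day 2, against 14.19 in Col-0 and 15.25 in TF on day 0. The days overlapped for *FER1*, since TF of day 2 lay above Col-0 of day 0. *OPT3*, an iron transporter of the phloem, was the one measured gene of the list separated by 2-fold, with 13.02 and 12.26 in Col-0 and TF on day 2, against 11.24 and 9.65 in Col-0 and TF on day 0.

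Markers of roots were read because the sources disagree on the tissue. Of 22 root genes, 22 were well above background in Col-0 and 20 in TF on day 2, against 9 in Col-0 and 10 in TF on day 0. Of all Cy3 spots, 77.5% were in Col-0 and 77.9% in TF on day 2, against 68.6% in Col-0 and 62.1% in TF on day 0. Among the genes measured on all arrays, *CASP1* of the root endodermis had 10.99 and 8.21 in Col-0 and TF on day 2, against 5.81 and 7.07 in Col-0 and TF on day 0 (blocked adjusted p 0.11), and *TIP2;3*, a root aquaporin, had 11.92 in Col-0 and 6.57 in TF on day 2, against 7.30 in Col-0 and 6.86 in TF on day 0. *LRX1*, a cell wall gene of root hairs, had 5.21 in Col-0 and 4.84 in TF on day 2, against 5.86 in Col-0 and 6.55 in TF on day 0. The median of the 7 genes was 2.85 in Col-0 and -0.29 in TF, and over both lines it was 1.31, with 0.11 without the day 2 Col-0 array and 2.23 without the day 2 TF array. Of the 22 root genes, 8 were well above background on both day 2 arrays and on neither day 0 array (6.11% of all loci). Among these 8 were other root hair genes, *COBL9*, *EXPA18*, *RHD6* and *PRP3*, at bounds of 1.59-fold to 2.33-fold. In the Cy5 channel, with the Al-treated plants of the same arrays, 19 and 16 root genes were above background on the Col-0 and TF arrays of replicate 2, against 12 and 9 on those of replicate 1. Of all Cy5 spots, 79.5% and 78.3% were on the Col-0 and TF arrays of replicate 2, against 69.5% and 69.7% on those of replicate 1. A larger share of root RNA and a lower detection limit cannot be told apart for the faint genes, and the part of root RNA in the *AIR1*, *NRT1.5*, *NRT2.1* and iron values was not tested.

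The leaf markers, genes of photosystems, antenna and Rubisco, were well above background on all arrays for 28 of 28 genes. All had a positive difference, 7 without overlap (22.7% of all loci had), and none was separated by 2-fold or called in the blocked fit. The median of 0.62 rested on the day 0 TF array. It was 0 in Col-0 and 1.2 in TF, -0.05 without that array and 1.23 without the day 0 Col-0 array. The median difference of TF minus Col-0 was -0.07 on day 2 and -1.35 on day 0. In Col-0, *LHCB1.2* was at 18.24 and *LHCB1.3* at 18.67 on both days. Quantile normalisation gives equal ranks equal levels, so for such bright probes a difference of 0 shows an equal rank only. *LHCB3*, an antenna protein gene, had 17.17 in Col-0 and 16.92 in TF on day 2, against 17.29 in Col-0 and 13.45 in TF on day 0. *LHCB1.1* had 17.95 and 17.10 in Col-0 and TF on day 2, against 18.34 and 16.06 in Col-0 and TF on day 0, and *RBCS1A* had 18.09 in Col-0 and 18.34 in TF on day 2, against 18.50 in Col-0 and 17.81 in TF on day 0. For both the sign of the mean depended on the scaling, at -0.14 and -0.31 with 75th percentile scaling. The genes of these families are near-identical in part, and their probes may share signal. Cell division genes also depended on that array. Their median was 0.90 over 18 of 23 genes, with 17 positive, and it was 0.28 without the day 0 TF array and 1.39 without the day 0 Col-0 array. Cytosolic ribosomal protein genes had a median of 0.08 over 15 genes, with none separated.

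The clock genes differed between the lines of day 0 as well as between the days. Of 28 genes 27 were measured, with a median of 0.74 and 3 separated higher, *PRR5*, *GI* and *FKF1*. None of the 27 was called in the blocked fit, and the blocked adjusted p of these 3 was 0.052, 0.079 and 0.12. *PRR5*, a repressor that peaks in the afternoon, had 13.72 in Col-0 and 13.41 in TF on day 2, against 9.21 in Col-0 and 11.51 in TF on day 0. *GI*, a clock and flowering gene of the evening, had 12.87 and 12.30 in Col-0 and TF on day 2, against 10.12 and 11.29 in Col-0 and TF on day 0. *FKF1*, the blue light receptor that works with *GI*, had 13.09 in Col-0 and 12.52 in TF on day 2, against 7.06 in Col-0 and 11.41 in TF on day 0. In all 3 genes the day 0 Col-0 array was the lowest.

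The morning genes showed the opposite order. *CCA1* was highest in Col-0 of day 0, at 11.62, and lowest in TF of day 0, at 8.24, and on day 2 the TF level exceeded the Col-0 level by 1.2. *LHY* had 7.51 and 9.03 in Col-0 and TF on day 2, against 10.99 and 6.88 in Col-0 and TF on day 0. For both genes the day 2 arrays lay between those of day 0, so that the day difference was -1.62 in Col-0 and 2.96 in TF for *CCA1*, and -3.48 and 2.15 for *LHY*. *TOC1*, the evening partner of both, had 12.64 in Col-0 and 11.51 in TF on day 2, against 10.92 in Col-0 and 12.09 in TF on day 0. *ELF4* had 13.79 and 12.07 in Col-0 and TF on day 2, against 9.80 and 11.93 in Col-0 and TF on day 0. *PRR7* was higher by 1.08 ± 0.35 with little difference between the lines, and *PRR9* was well above background on 3 arrays. Over the 27 genes the lines lay at least 2-fold apart at 9 genes on day 2 and at 18 genes on day 0, whereas 11.8% and 24.9% of all probes did. No source used here gives the hour of sampling. In Cy5 the order of the arrays was like that in Cy3 for *FKF1* and differed in part for *LHY* and *CCA1*. *LHY* had 6.86 and 8.32 in Al-treated Col-0 and TF of replicate 2, against 10.35 and 8.02 in Al-treated Col-0 and TF of replicate 1, and *FKF1* had 12.48 and 12.40, against 8.49 and 11.35. *CCA1* had 8.21 and 10.43 in Al-treated Col-0 and TF of replicate 2, against 10.23 and 9.70 in Al-treated Col-0 and TF of replicate 1. With 1 array for each line and day, the difference between the lines could not be tested.

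**Figure D4:**
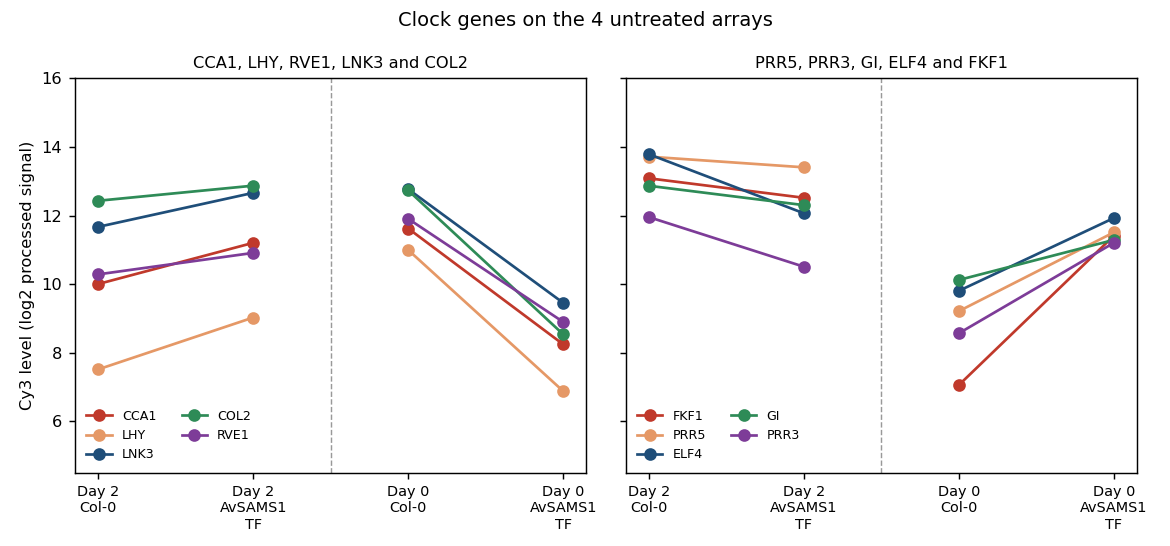
The log2 Cy3 level of 10 clock genes is plotted on the 4 untreated arrays, with the 2 lines of one day joined by a line. LHY (left) was at 7.51 and 9.03 on day 2 and at 10.99 and 6.88 on day 0, FKF1 (right) at 13.09 and 12.52 on day 2 and at 7.06 and 11.41 on day 0, each in the order Col-0, AvSAMS1 TF. The choice of LNK3, COL2, RVE1 and PRR3 followed a look at their values.

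The glucosinolate list held genes of both signs. Its median was 1.06 over 10 of 16 genes, with 3 separated higher and 1 lower. The genes on the methionine side were higher, namely *MAM1*, *CYP83A1* and *MAM3*, the last without a separation of 2-fold (3.85 ± 1.61). *MYB28* and *MYB29*, the transcription factors of this side, were well above background on both day 2 arrays and on neither day 0 array. This held for 3 of the 16 genes and for 6.11% of all loci. *MYB29* was at least 8.70-fold higher on day 2. *CYP79B2*, which starts the tryptophan side, had 13.13 in Col-0 and 13.79 in TF on day 2, against 15.26 in Col-0 and 16.73 in TF on day 0, a difference of -2.54 ± 0.60 with a blocked adjusted p of 0.02. *SOT18*, a late sulphotransferase, was higher by 1.87 ± 0.45.

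Of the genes of abscisic acid, cold and dehydration 19 of 28 were measured, with a median of 0.58 (1.08 without day 0 Col-0, 0.38 without day 0 TF), 2 separated higher and 1 lower. *RAB18*, a dehydrin gene, had 15.42 in Col-0 and 13.08 in TF on day 2, against 9.62 in Col-0 and 11.84 in TF on day 0 (blocked adjusted p 0.11). *RD22* had 11.64 and 12.39 in Col-0 and TF on day 2, against 9.47 and 8.82 in Col-0 and TF on day 0. *HAI1*, a phosphatase gene of abscisic acid signalling, was lower by 2.41 on the log2 scale. *RD29A* differed by 0.28 ± 0.77, at 1.48 in Col-0 and -0.92 in TF, and *COR15A* by 1.98 ± 1.01. The day difference of *COR15A* was nearly equal in the lines, at 1.88 in Col-0 and 2.08 in TF, and the block changed its call (blocked adjusted p 0.027). Its levels were apart, with TF minus Col-0 at -1.99 on day 2 and -2.19 on day 0, and its days overlapped. Flavonoid genes were above background on all arrays for 7 of 17 genes, with none separated, and light and shade genes for 13 of 15, with a median of 0.62 (0.19 without day 0 TF) and none separated.

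No relative of the transgene was separated between the days. *SAM1*, *SAM2*, *MAT3* and *MAT4* encode the 4 SAM synthetases of *Arabidopsis*, and their differences were -0.33 ± 0.32, -0.21 ± 0.37, -0.05 ± 0.38 and -0.29 ± 0.31. *SAM1* had 14.83 in Col-0 and 14.99 in TF on day 2, against 15.02 in Col-0 and 15.45 in TF on day 0. The whole list of methionine and SAM genes had a median of 0.10 over 12 of 13 genes, with 0 higher and 1 lower. That gene was *MGL*, methionine gamma-lyase, which breaks methionine down, with 12.37 and 13.26 in Col-0 and TF on day 2, against 14.41 and 16.64 in Col-0 and TF on day 0. The *AvSAMS1* transcript itself was not analysed here.

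The Al-treated plants on the same arrays served as a second readout, since the labels give them day 2 in both replicates while slide and software differ as in Cy3. Over 25773 probes above background in both channels, the SD of the replicate 2 minus replicate 1 difference was 0.96 in Cy3 and 0.70 in Cy5, and the 2 differences had a Pearson r of 0.44 across probes, which share arrays and spots. In Cy5, 180 loci (1.08%) were separated higher and 385 (2.31%) lower, against 2.76% and 5.46% in Cy3. Of the 458 loci separated higher in Cy3 and measured in both channels, 81 were separated higher in Cy5 too, and of the 886 separated lower, 161 were separated lower. Their median differences were 2.06 in Cy3 and 0.86 in Cy5 for the higher loci, and -2.14 and -0.62 for the lower loci. These loci were chosen by their Cy3 values. A smaller difference in Cy5 and a partial overlap can follow from that choice alone, so these values do not show a difference between the channels. The difference between the channels was tested with limma on the ratios of the 4 arrays, and 0 probes passed an adjusted p of 0.05 (smallest 0.405, 3071 probes at an unadjusted p under 0.05). Without the day 0 Col-0 array, 10444 probes passed, with the lone replicate 1 array assumed to vary as the others do.

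List medians were close in the channels for some lists and apart for others. The median replicate difference was 1.36 in Cy3 and 1.48 in Cy5 for phosphate starvation genes, -2.02 and -1.96 for heat shock genes, 0.72 and 0.74 for sulphur starvation genes and -1.38 and -1.05 for dark and sugar starvation genes. Within the heat shock list single genes differed between the channels, with *AT1G53540* at -6.37 in Cy3 and -3.33 in Cy5, *HSP17.4* at -5.62 and -1.39, and *HSP18.2* at -4.69 and -6.07. Oxygen shortage genes had a larger difference in Cy5, at -1.22 in Cy3 and -2.85 in Cy5. Touch, wound and early stress genes were at -1.83 in Cy3 and -0.26 in Cy5, and salicylic acid genes at -1.11 in Cy3 and 1.23 in Cy5. *CML37* was lower in replicate 2 by 4.08 on the log2 scale in Cy3, and by 0.45 in Cy5. *SARD1* was lower by 3.18 in Cy3 and by 0.43 in Cy5. These list medians were not tested against each other.

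**Figure D5:**
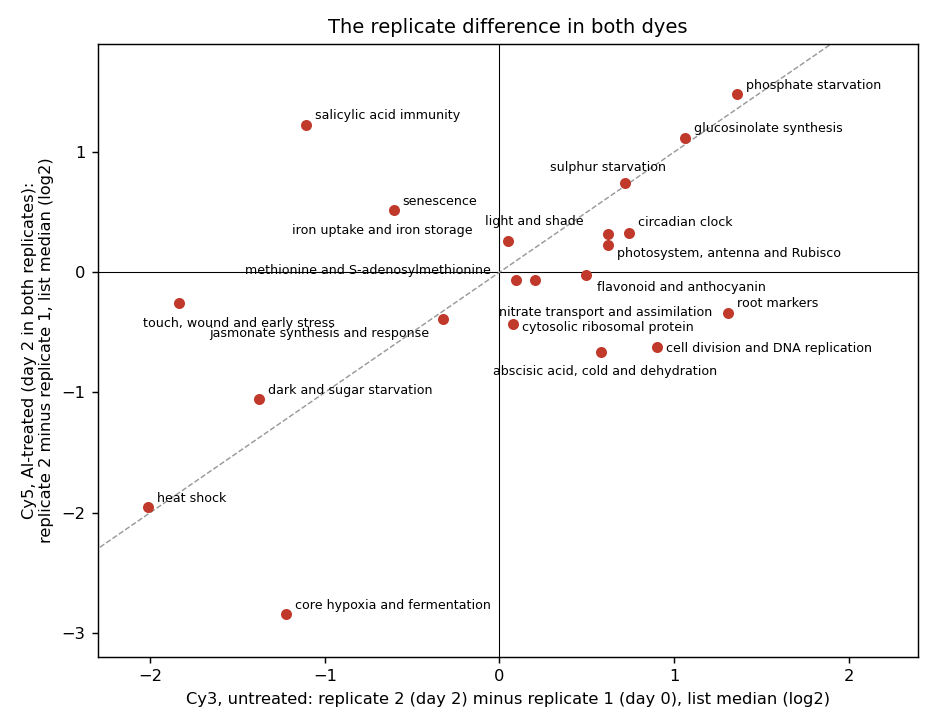
Each of 21 gene lists is placed by its median replicate 2 minus replicate 1 difference in the Cy3 channel of untreated plants (x axis, log2) and in the Cy5 channel of Al-treated plants (y axis, log2), with equality as a dashed line. Heat shock (-2.02 and -1.96) and phosphate starvation (1.36 and 1.48) lie close to that line, and salicylic acid immunity (-1.11 and 1.23) lies far from it. The Cy5 median of the root markers is over 5 genes, all others are over the genes used in Cy3.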

How the data were processed

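The authors' scanner files hold, per spot, the processed signal intensity of each dye, which Agilent Feature Extraction made by background subtraction and dye normalisation, the median pixel intensities, and flags deposited beside them. Per the file headers, version 10.7.1.1 was used for the day 2 and 11.0.1.1 for the day 0 arrays, while the submitters' processing notes name 10.7.3.1. The deposited series table holds log2 ratios of Cy5 over Cy3 and was used as an alternative in the test between the channels.

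Control spots were dropped, as were the 10 to 23 spots with an outlier mark on each array, and replicate spots of a probe were averaged. The log2 processed Cy3 signals were quantile-normalised over the 4 arrays, and probes well above background on all 4 were kept. Probes were paired with loci through RefSeq accessions (TAIR10.1 gene table): 34264 probes had a locus. For a locus with several probes, that with the highest mean signal was used. limma 3.58.1 in R 4.3.3 (lmFit, eBayes, two-sided, Benjamini-Hochberg over all probes kept) had 2 residual degrees of freedom. The line pairs the arrays of the 2 days: the deviations of the lines from the day means correlated at 0.52 across probes. Simulated data were used to test the scripts. p-values measure only the spread between these 4 pools, and no line was replicated within a day. In the main fit that spread holds the gap between Col-0 and TF within a day. In the block fit it holds the disagreement of the lines on the day difference. The number of arrays limits the precision. Levels are per probe and were not compared between genes.

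Named genes are, by size of the mean difference, the top 10 loci in either direction without overlap between days, up to 4 separated genes per list, and a set of defining clock, nutrient, stress and SAM genes; *HSP101*, *HSFA2*, *LHCB3*, *ERF104*, *ERF5*, *TIP2;3*, *PHR1*, *FER1* and other list members outside this rule were picked with their values in view. The members and the 21 lists (426 entries for 423 loci, of which 422 entries have a probe) were chosen with earlier results of these data known. A bound ("at least N-fold") sets the mean level of the bright day against the mean, per dim array, of the higher of the lowest level well above background and the probe's own level. No promoter motifs were searched and no sequences are shown, since no sequences were used here.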

Additional observations from a re-analysis of the deposited data

Results flagged for a closer look

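In the following, the day differences of untreated Col-0 and untreated AvSAMS1 TF had opposite signs. Some of them lay close to 0, such as those of *MAT3*, and show no clear movement. The difference between the lines was not tested, since each line had 1 array a day. The number after each name is the day difference in TF minus that in Col-0, on the log2 scale. It was 4.58 for *CCA1* (2.96 in TF, -1.62 in Col-0), 5.63 for *LHY* (2.15 in TF, -3.48 in Col-0) and -2.28 for *TOC1* (-0.57 in TF, 1.71 in Col-0). It was 1.43 for *LHCB1.1* and 0.95 for *RBCS1A*, whose levels on the day 0 TF array were the lowest. *RD29A* was at -2.40 (-0.92 in TF, 1.48 in Col-0) and *MAT3* at 0.11 (0.0070 in TF, -0.10 in Col-0).

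Among the list medians it was -3.14 for root markers (-0.29 in TF, 2.85 in Col-0, 7 genes), 1.32 for flavonoid and anthocyanin genes (1.15 in TF, -0.17 in Col-0, 7 genes) and 1.08 for jasmonate genes (0.32 in TF, -0.76 in Col-0, 24 genes). Iron genes were at -0.96, ribosomal protein genes at 0.57, nitrate genes at -0.40 and methionine and SAM genes at 0.22.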

How the results depend on the processing

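Each alternative other than the line block left the count of limma calls between the days at 0 in both directions, with 2003 to 8635 probes at an unadjusted p under 0.05; with line as replicate block 574 probes were called higher and 1496 lower. Leaving out each array in turn, the probes separated by 2-fold numbered 1126 to 2765 higher (against 674) and 2012 to 3523 lower (against 1524), the rule being easier to meet with 3 arrays. The highest counts were those without the day 0 Col-0 array. The lower count was 952 with normexp and quantile normalisation, 1001 with normexp, loess and Aquantile, and 3309 without a filter. The higher count was 2216 with probes above background on at least 2 arrays and 2550 without a filter. With at least 2 arrays the lower count was 1841. Quantile normalisation over the kept probes alone, chosen after seeing the data, gave 770 and 1171. The channel test had 0 calls, and 0 to 10444 when each array was left out, the highest without the day 0 Col-0 array. The line block left it at 0.

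Of 78 named genes under 14 alternatives, 48 were called with the line block alone. Signs turned for 9 genes. *LHCB1.1* and *RBCS1A* were at -0.14 and -0.31 with 75th percentile scaling and at -0.14 and -0.38 with normexp, loess and Aquantile. With each array left out in turn, *LHCB1.1* ran from -0.81 to 1.47, *RBCS1A* from -0.29 to 0.41, *LHY* from -2.72 to 1.39, *CCA1* from -1.02 to 2.36, *TOC1* from -0.011 to 1.15, *RD29A* from -0.82 to 1.37, *NIR1* from -0.10 to 1.11, *SAM2* from -0.53 to 0.11 and *MAT3* from -0.35 to 0.25. The cause was not tested. List medians changed sign in 16 cases over all lists and alternatives. The dimmer day 0 arrays limit what can be read of faint genes. A slide as random block could not be fitted, since only 1 slide holds more than 1 array.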
